A study of Mus musculus with 24 samples.

Results

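The effect of β-catenin loss in embryonic kidney stroma at E12.5 (embryonic day) was measured in 6 of the 24 RNA-seq libraries of the series, across 13803 genes. The 6 libraries were chosen by their labelled genotype, strain and stage: 3 β-catSD libraries, from stromal cells deficient in β-catenin on a C57BL/6 background, and 3 wild-type (WT) libraries of C57BL/6 at the same stage. The remaining libraries, also in groups of 3, were β-catSD and C57BL/6 WT at E13.5, and stroma with stabilised β-catenin (β-catSO) and WT on a CD1 background at both stages. Mice of every genotype, WT included, are recorded with the FoxD1Cre-eGFP transgene, a Cre recombinase driven from the stromal gene Foxd1, and stromal cells were taken by fluorescence-activated sorting of collagenase-dissociated kidneys. The sources used here do not name the alleles that remove β-catenin. They mention 3 kidneys per genotype but not whether replicate libraries come from different kidneys, embryos or litters. The p-values therefore reflect only how the 24 fitted libraries scatter within their groups, which may be technical.

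Kidney stromal progenitors, marked by the forkhead factor Foxd1, give rise to the cortical and medullary interstitium, the mesangium and the pericytes, and send signals to the nephron progenitors and the ureteric bud beside them. In cells that receive a canonical Wnt signal, β-catenin escapes a destruction complex built on Axin and APC, enters the nucleus and works with TCF/LEF factors at target genes, of which Axin2 is the one used most widely as a readout. β-catenin also ties cadherins to the actin skeleton at cell junctions. The comparison of β-catSD with WT asks which stromal transcripts depend on β-catenin at an early stage of kidney growth.

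Levels are in log2 CPM as deposited, the logarithm to base 2 of the read count scaled to the size of the library. The β-catSD libraries held 15.5, 8.28 and 6.95 M reads (M, mega) and the WT libraries 10.1, 12 and 12 M reads. Pairs of libraries correlated across genes with r between 0.959 and 0.972 within β-catSD and between 0.933 and 0.961 within WT. The 14 genes of a kidney stroma list (Foxd1, Pdgfra, Meis1, Tcf21, Col1a1 and others) summed to 14000, 13000 and 17100 CPM in β-catSD, against 13800, 14400 and 13800 CPM in WT, and none was at 0 in any library. Foxd1 itself measured 9.27, 8.98 and 8.90 log2 CPM in β-catSD, against 9.22, 9.11 and 8.85 in WT (log2 change -0.01 ± 0.15 SE, adjusted p = 0.986), so the groups overlapped in the gene that drives the Cre. RNA of other cells was present too. Embryonic globin and other erythroid genes summed to 60, 20 and 75.7 CPM in β-catSD, against 724, 854 and 589 CPM in WT, without overlap. Endothelial genes summed to 80.3, 77.2 and 156 CPM in β-catSD, against 97.7, 317 and 280 CPM in WT, and macrophage genes to 148, 108 and 254 CPM in β-catSD, against 149, 161 and 919 CPM in WT. In bulk libraries fewer cells of a type and less RNA per cell cannot be told apart.

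Individual libraries stood apart in each group. WT replicate 3 held the liver transcripts Alb and Afp at 10.44 and 11.08 log2 CPM, while the highest value of either among the other 5 libraries was -0.26. β-catSD replicate 3 had Xist, the RNA of the inactive X chromosome, at -1.45 log2 CPM and the Y-linked Ddx3y at 6.67, whereas the other 5 libraries held Xist between 8.77 and 10.09 together with Ddx3y between 3.39 and 5.32. Counts of called genes are therefore given with and without each library.

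**Figure D1:**
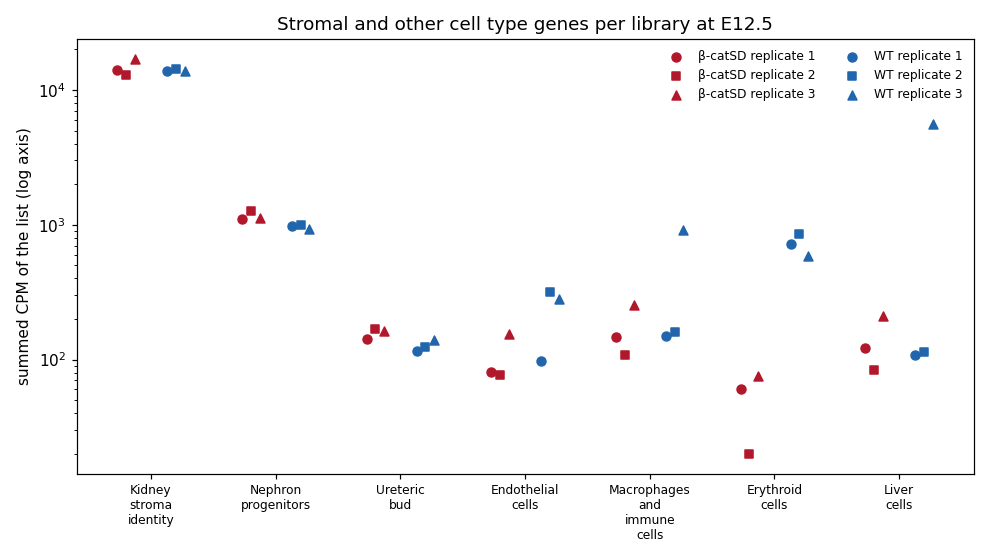
Summed CPM of gene lists for stroma and for 6 other cell types in each β-catSD and WT library at E12.5, on a log axis; each symbol is 1 library. Stromal sums lie between 13000 and 17100 CPM in all 6 libraries, erythroid sums are lower in every β-catSD library, and the liver sum of WT replicate 3, at 5580 CPM, stands far above the rest.

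Ctnnb1, the gene of β-catenin, fell by 0.31 on the log2 scale. It measured 10.66, 10.47 and 10.36 log2 CPM in β-catSD, against 10.85, 10.86 and 10.69 in WT, so the groups did not overlap but lay close together (SE 0.06, adjusted p = 0.0133). The call was lost without β-catSD replicate 2 or 3 or WT replicate 1 or 2, with an adjusted p of at most 0.122. The values are counts over the whole gene (chr9:120929216-120960507, + strand, GENCODE M21 on GRCm38), which overlaps Ulk4 on the other strand. Reads from parts of the transcript that the deletion leaves in place are included, so this level is only a partial check of the label.

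Targets of Wnt and β-catenin signalling fell more often than they rose. Of 23 measured targets, 5 fell and 1 rose, which is 26.1% called, against 1.72% of all 13803 genes, and their median log2 change was -0.31, against 0.001 over all genes. Of the 761 genes in any list used here, 8.41% were called. Lists and members were chosen with earlier results of these data known, so the share called in a list may be raised by that choice. Axin2, the scaffold of the destruction complex and a direct β-catenin target, measured 3.88, 3.82 and 3.30 log2 CPM in β-catSD, against 4.81, 4.72 and 4.56 in WT. Every β-catSD library lay below every WT library (log2 change -1.03 ± 0.15 SE, adjusted p = 0.000553), a 2.04-fold lower level. Lef1, a DNA-binding partner of β-catenin, measured 2.35, 2.59 and -0.07 log2 CPM in β-catSD, against 4.24, 4.10 and 3.78 in WT. It was lower in all 3 β-catSD libraries, and lowest by far in replicate 3 (log2 change -2.42 ± 0.42 SE, adjusted p = 0.00293). Tnfrsf19, a receptor of the TNF family, fell by 1.96 ± 0.41 SE (adjusted p = 0.0114), Apcdd1, a membrane inhibitor of Wnt signalling, by 0.90 ± 0.18 SE (adjusted p = 0.00827), and Nkd2, an inhibitor that binds Dishevelled, by 0.97 ± 0.21 SE (adjusted p = 0.0179). The single member that rose was Dkk1, a secreted antagonist of Wnt coreceptors, which measured 4.61, 5.34 and 5.28 log2 CPM in β-catSD, against 4.46, 3.95 and 3.94 in WT (log2 change 0.96 ± 0.21 SE, adjusted p = 0.0198).

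Not all Wnt feedback genes passed the test. Tcf7, another TCF/LEF factor, measured 2.68, 2.40 and 1.35 log2 CPM in β-catSD, against 3.18, 3.59 and 3.13 in WT, and narrowly missed the threshold (log2 change -1.16 ± 0.31 SE, adjusted p = 0.0558). Nkd1, the paralogue of Nkd2, differed by -0.26 ± 0.13 SE (adjusted p = 0.365), although its 3 β-catSD libraries all lay below WT. Sp5 (log2 change -3.17), Rnf43 (-2.20) and Notum (-1.36) were not called, nor were Lgr5 (1.11), Wif1 (1.43) and Ccnd1 (0.26). Of the 6 called targets, Axin2 and Lef1 kept their call whichever library was left out. Apcdd1 lost it without WT replicate 1 (adjusted p = 0.051), Tnfrsf19 without β-catSD replicate 3 or WT replicate 1 or 2 (adjusted p up to 0.0987), Nkd2 without β-catSD replicate 2 or 3 or WT replicate 2 or 3 (up to 0.0822), and Dkk1 without the same 4 libraries (up to 0.118).

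The TCF/LEF core motif CTTTGA, the only motif searched, was looked for on both strands in RefSeq promoters of GRCm38.p6, from 250 bases before to 50 bases after each start. It was present in 15.5% of 103 promoters of 70 genes that fell and in 10.1% of 129 promoters of 98 genes that rose, against 11.7% of 13702 promoters of genes in the file and 16.0% of all 32851 promoters. Promoters of 3 genes of the Wnt target list that fell, and of Sema3e, a secreted guidance cue described further on, show how the motif falls in single windows, with matches in capitals. Axin2 (chr11:108920099-108920398, + strand) has no match in this window. Lef1 has 4 windows, of which the one printed (chr3:131156044-131156343, + strand) has matches 180 and 120 bases before the start and the other 3 have none. Tnfrsf19 (chr14:61037938-61038237, - strand, the one of 2 windows with a match) has it 201 bases before the start, and Sema3e (chr5:14025026-14025325, + strand) 118 bases before. All matches read as the reverse complement on the gene's own strand. The printed windows of Lef1 and Tnfrsf19 lie inside the annotated genes (chr3:131110471-131224356 and chr14:60963875-61046490). They belong to internal starts, and the windows at the 5' end of these genes have no match.
Axin2: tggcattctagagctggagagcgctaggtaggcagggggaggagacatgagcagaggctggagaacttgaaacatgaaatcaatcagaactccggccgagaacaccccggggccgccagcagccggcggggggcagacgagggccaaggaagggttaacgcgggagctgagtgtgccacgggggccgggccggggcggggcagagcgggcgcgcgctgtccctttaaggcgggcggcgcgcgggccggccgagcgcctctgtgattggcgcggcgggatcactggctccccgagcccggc
Lef1: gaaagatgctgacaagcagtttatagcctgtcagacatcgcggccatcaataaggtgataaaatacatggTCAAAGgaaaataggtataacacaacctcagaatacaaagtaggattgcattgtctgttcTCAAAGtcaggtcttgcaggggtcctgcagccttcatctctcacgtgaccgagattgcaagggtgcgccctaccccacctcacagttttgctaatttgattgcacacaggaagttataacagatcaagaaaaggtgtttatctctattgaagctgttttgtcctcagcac
Tnfrsf19: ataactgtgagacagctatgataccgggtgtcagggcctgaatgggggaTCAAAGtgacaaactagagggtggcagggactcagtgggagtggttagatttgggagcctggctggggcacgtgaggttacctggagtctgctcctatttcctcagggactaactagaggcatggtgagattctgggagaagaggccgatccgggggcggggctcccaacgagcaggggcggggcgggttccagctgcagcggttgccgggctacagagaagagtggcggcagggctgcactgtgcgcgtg
Sema3e: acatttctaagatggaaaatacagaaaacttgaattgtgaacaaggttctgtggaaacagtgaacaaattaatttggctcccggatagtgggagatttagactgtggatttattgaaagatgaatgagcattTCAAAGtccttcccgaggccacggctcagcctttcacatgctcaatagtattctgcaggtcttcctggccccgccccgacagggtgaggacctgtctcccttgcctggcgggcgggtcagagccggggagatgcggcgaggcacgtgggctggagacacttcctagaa

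Across the transcriptome, 237 genes (1.72%) were called between β-catSD and WT, 136 higher (0.985%) and 101 lower (0.732%). The change was at least 2-fold in 56 of the genes that rose and 41 of those that fell, and the median log2 change was 0.81 among genes that rose and -0.87 among genes that fell. In 2207 genes (16%) the 3 β-catSD libraries all lay beyond the 3 WT libraries, above them in 8.64% of genes and below them in 7.35%, and 230 of the 237 called genes were among them. The count depended on single libraries. It was 395, 158 and 92 without β-catSD replicates 1, 2 and 3, and 124, 111 and 266 without WT replicates 1, 2 and 3. Genes called in all 6 of these fits numbered 62, of which 34 rose and 28 fell, and 30 were called under every alternative that was run, Thy1, Axin2, Alx1, Frem1, Zeb2, Lgr4, Fzd8, Meox1, Mgp, Ccl11 and Nrp1 among them. With the mean levels of the macrophage, endothelial, erythroid and liver lists as covariates, 85 genes were called, 64 of them among the 237.

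**Figure D2:**
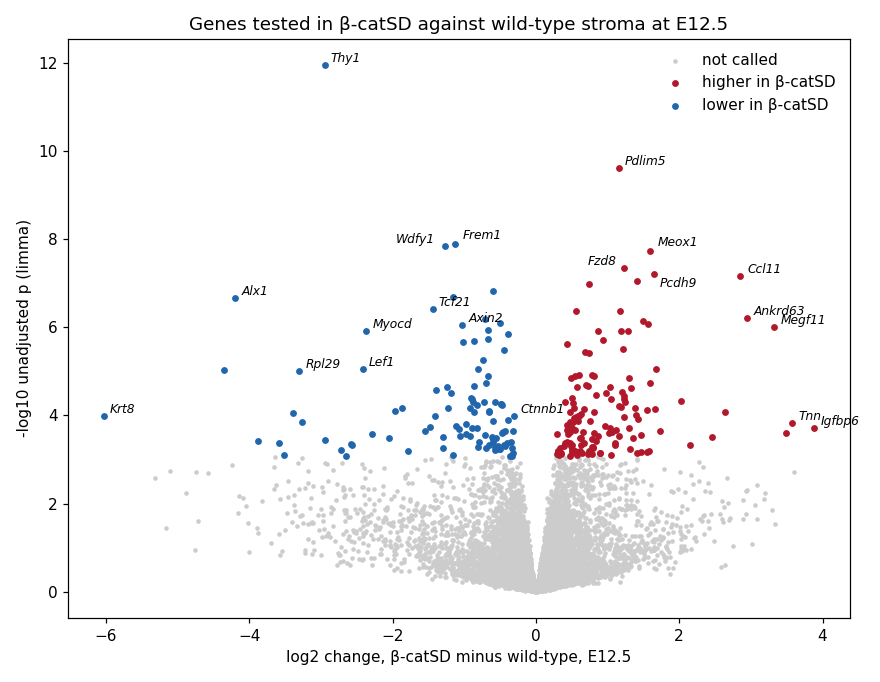
Each of the 13803 genes by its log2 change in β-catSD minus WT stroma at E12.5 (x axis) and the negative log10 of its unadjusted limma p (y axis); coloured points are the 136 genes that rose and the 101 that fell. Thy1 has the smallest p on the left and Pdlim5 on the right, and Ctnnb1 lies near the foot of the left arm.

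Genes named below for their smallest p or largest change were taken only from called genes whose groups do not overlap. The smallest p of all belonged to Thy1, a glycolipid-anchored surface protein of fibroblasts, neurons and T cells (chr9:44043384-44048579, + strand). Thy1 measured 1.45, 1.68 and 1.35 log2 CPM in β-catSD, against 4.55, 4.48 and 4.29 in WT. The libraries of each group lay within a narrow band and the bands were far apart, with a 7.7-fold lower level in β-catSD (log2 change -2.94 ± 0.21 SE, adjusted p = 1.53e-08). Alx1, a homeobox factor of mesenchyme, showed a larger but more variable fall. It measured 2.16, 0.48 and -1.45 log2 CPM in β-catSD, from 69, 11 and 2 reads, against 4.72, 4.83 and 4.22 in WT, from 267, 343 and 229 reads (log2 change -4.20 ± 0.57 SE, adjusted p = 0.000225). All 3 β-catSD libraries were below WT, with replicate 3 lowest. Frem1, an extracellular matrix protein of the Fraser complex, measured 6.98, 7.28 and 6.65 log2 CPM in β-catSD, against 8.07, 8.26 and 7.96 in WT (log2 change -1.13 ± 0.13 SE, adjusted p = 4.95e-05). The phosphoinositide-binding adaptor Wdfy1 fell by 1.27 ± 0.15 SE (adjusted p = 4.95e-05), and the ubiquitin ligase Pdzrn3 by 1.16 ± 0.16 SE (adjusted p = 0.000225).

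Other genes were also among the smallest p on the lower side. Tcf21, a helix-loop-helix factor required in kidney mesenchyme, measured 6.18, 5.28 and 4.98 log2 CPM in β-catSD, against 7.26, 7.09 and 6.42 in WT (log2 change -1.44 ± 0.20 SE, adjusted p = 0.000361). The repressor Zeb2 measured 6.90, 6.71 and 6.79 log2 CPM in β-catSD, against 7.59, 7.61 and 7.33 in WT (log2 change -0.71 ± 0.10 SE, adjusted p = 0.000498). Neither gene overlapped between groups, which was a condition for naming them here. Tcf21 varied widely within both groups, while the spread of Zeb2 in β-catSD was 0.10 (SD, n = 3). Nnt, a mitochondrial transhydrogenase in which the C57BL/6J substrain is known to carry a deletion, fell by 0.60 ± 0.08 SE (adjusted p = 0.000183), and Sacm1l, a phosphoinositide phosphatase, by 0.50 ± 0.07 SE (adjusted p = 0.000538). Among the largest falls were genes with few reads or with other loci. Rpl29, a ribosomal protein gene with 49 near-identical loci among which reads may be split, measured 0.40, 0.71 and 0.75 log2 CPM in β-catSD, against 4.14, 3.87 and 3.74 in WT (log2 change -3.30 ± 0.58 SE, adjusted p = 0.00311). Its mean at E12.5 was also low on the CD1 background, at 0.73 log2 CPM in WT and -0.28 in β-catSO. At this stage only C57BL/6 WT was high. Rpl29 lies 14.5 Mb from Ctnnb1 on chromosome 9, and the parts of strain, locus and β-catenin loss in its change were not tested. The splicing regulator gene Rbm47 and the carbonic anhydrase gene Car2 fell by 3.59 ± 0.87 SE and 3.51 ± 0.90 SE, with adjusted p of 0.0329 and 0.047, from at most 9 reads in any β-catSD library. Rbm47 lost its call without β-catSD replicate 1 or WT replicate 2 or 3 (adjusted p up to 0.12), and Car2 without β-catSD replicate 2 or any WT library (up to 0.207).

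On the higher side the smallest p belonged to Pdlim5, a PDZ and LIM domain protein of the actin skeleton (chr3:142239590-142395696, - strand). Pdlim5 measured 8.08, 8.29 and 8.42 log2 CPM in β-catSD, against 7.08, 7.10 and 7.16 in WT, a 2.22-fold higher level (log2 change 1.15 ± 0.11 SE, adjusted p = 1.69e-06). Meox1, a homeobox factor best known from somites (chr11:101877510-101894374, - strand), measured 6.82, 7.14 and 7.38 log2 CPM in β-catSD, against 5.62, 5.57 and 5.39 in WT (log2 change 1.59 ± 0.19 SE, adjusted p = 5.06e-05). In both genes the groups were separated by more than the range within either. Mgp, an inhibitor of matrix calcification, measured 5.92, 6.00 and 6.42 log2 CPM in β-catSD, against 4.82, 4.79 and 4.50 in WT (log2 change 1.41 ± 0.18 SE, adjusted p = 0.000138). Ccl11, the chemokine eotaxin, measured 4.03, 4.14 and 4.90 log2 CPM in β-catSD, against 1.92, 0.54 and 2.07 in WT, a 7.21-fold higher level (log2 change 2.85 ± 0.36 SE, adjusted p = 0.000117). The lowest β-catSD library of Ccl11 stood well above the highest WT library.

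The remaining rises of smallest p included surface, channel and zinc finger genes. The protocadherin Pcdh9 rose by 1.64 ± 0.21 SE (adjusted p = 0.000117) and Tmem132e, a transmembrane protein, by 1.50 ± 0.22 SE (adjusted p = 0.000516). Kcns3, a silent subunit of voltage-gated potassium channels, rose by 1.17 ± 0.17 SE, and Tshz2, a teashirt zinc finger factor, by 0.56 ± 0.08 SE, both with an adjusted p of 0.000361. The largest rises included Megf11, a surface protein with EGF repeats, at 3.26, 2.78 and 3.79 log2 CPM in β-catSD, against -0.65, 0.36 and 0.13 in WT (log2 change 3.32 ± 0.50 SE, adjusted p = 0.000597). Ankrd63, an ankyrin repeat gene, measured 2.42, 3.92 and 4.05 log2 CPM in β-catSD, against -0.10, 0.84 and 0.81 in WT (log2 change 2.95 ± 0.43 SE, adjusted p = 0.000498). In these 2 genes the β-catSD libraries held from 2.42 to 4.05 log2 CPM, where WT lay between -0.65 and 0.84. Rbm20, a splicing factor of muscle, rose by 3.49 ± 0.80 SE (adjusted p = 0.0235) with 12, 6 and 11 reads in β-catSD, against 0, 0 and 4 reads in WT, and lost its call without β-catSD replicate 2 or 3 or WT replicate 1 or 2 (adjusted p up to 0.136).

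**Figure D3:**
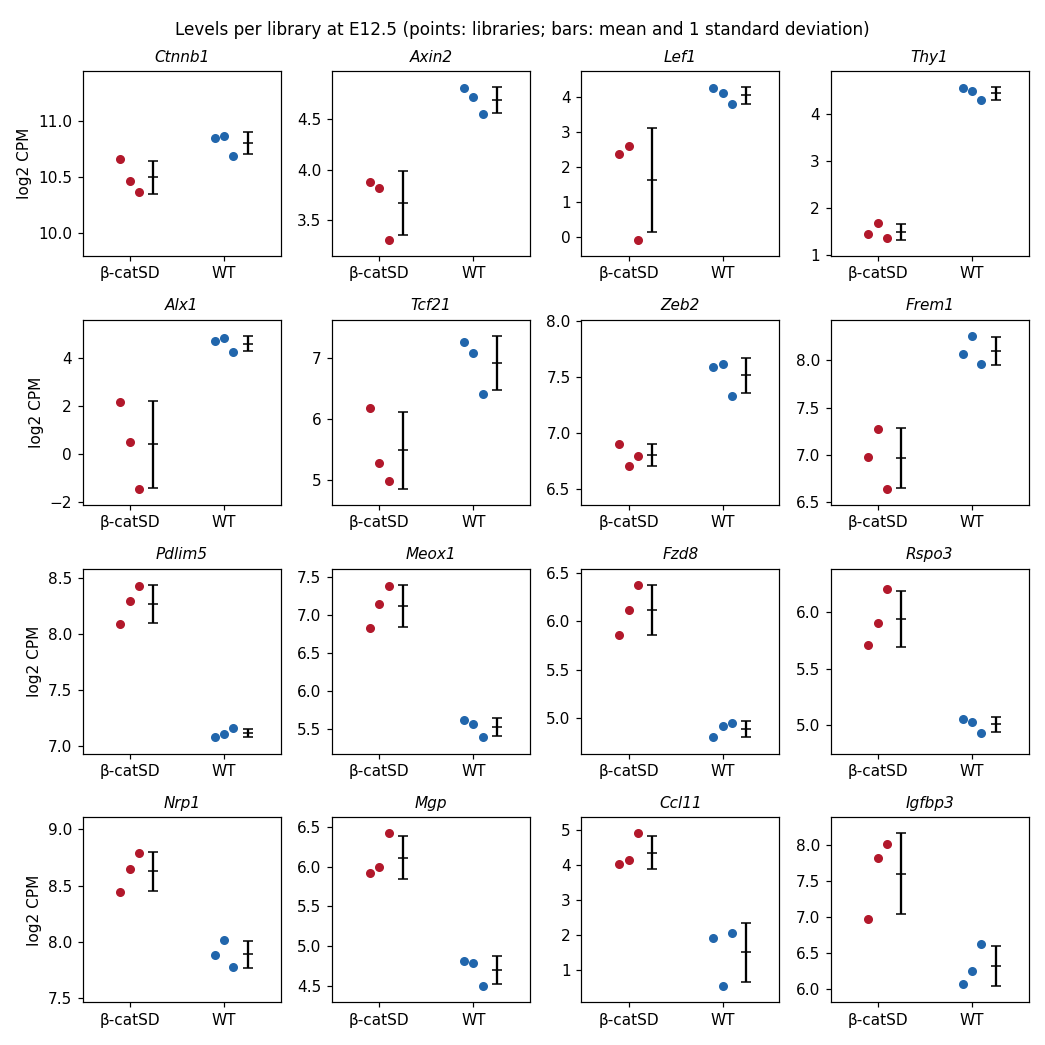
log2 CPM of 16 genes in each β-catSD library (red) and WT library (blue) at E12.5; bars beside the points give the mean and 1 standard deviation (n = 3 each). The groups do not overlap in any of the 16 panels, which was a condition of choice for all but Ctnnb1, Lef1, Rspo3 and Igfbp3. The gap is narrowest for Ctnnb1, and β-catSD replicate 3 lies lowest for Lef1 and Alx1.

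Receptors and secreted modulators of Wnt moved in both directions. Of 45 measured genes of this list 4 rose and 4 fell (17.8% called, median log2 change 0.07). Among the Frizzled receptors, Fzd8 measured 5.85, 6.12 and 6.38 log2 CPM in β-catSD, against 4.79, 4.91 and 4.95 in WT (log2 change 1.23 ± 0.15 SE, adjusted p = 0.000101), and Fzd5 rose by 1.58 ± 0.40 SE (adjusted p = 0.0422). Fzd1 measured 8.06, 7.83 and 7.46 log2 CPM in β-catSD, against 8.63, 8.60 and 8.19 in WT (log2 change -0.69 ± 0.13 SE, adjusted p = 0.00485). Fzd7, at 8.26, 8.26 and 8.27 log2 CPM in β-catSD, against 8.85, 8.77 and 8.63 in WT, fell by 0.49 ± 0.10 SE (adjusted p = 0.0097). Fzd8 and Fzd5 thus rose while Fzd1 and Fzd7 fell, in each case without overlap of the groups. Fzd6 fell by 2.56 ± 0.63 SE (adjusted p = 0.0349), with 5, 3 and 3 reads in β-catSD, against 9, 47 and 52 reads in WT. Rspo3, a secreted R-spondin that strengthens Wnt signals, measured 5.71, 5.91 and 6.21 log2 CPM in β-catSD, against 5.05, 5.03 and 4.92 in WT (log2 change 0.94 ± 0.15 SE, adjusted p = 0.000844). Its receptor Lgr4 moved the other way, with 6.55, 6.58 and 6.35 log2 CPM in β-catSD, against 7.25, 7.11 and 7.14 in WT (log2 change -0.67 ± 0.10 SE, adjusted p = 0.000597). Dkk2, a secreted modulator of Wnt coreceptors, rose by 0.89 ± 0.23 SE (adjusted p = 0.0448). No Wnt ligand gene of the list was called. Positive log2 changes were those of Wnt2 (0.98), Wnt2b (0.71), Wnt4 (1.11), Wnt5a (0.01), Wnt5b (0.03), Wnt10a (0.26) and Wnt11 (0.39). Negative ones were those of Wnt6 (-0.15), Wnt7b (-2.97), Wnt9b (-2.90) and Wnt16 (-0.19). Wnt7b and Wnt9b were low, with means of -1.43 and -1.13 log2 CPM over the 24 libraries.

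Within this group the calls of Fzd8, Fzd1, Rspo3 and Lgr4 were kept in all 6 fits with a library left out. Fzd7 lost its call without WT replicate 1 (adjusted p = 0.06), Fzd5 and Dkk2 without β-catSD replicate 2 or 3 or WT replicate 1 or 2 (up to 0.198 and 0.295), and Fzd6 without any library except WT replicate 1 (up to 0.155). In the destruction complex and at the junctions, 2 of 31 measured genes fell and 0 rose (6.45%, median 0.02). These were Ctnnb1 itself and the corepressor Tle3, which fell by 0.47 ± 0.09 SE (adjusted p = 0.00982) and lost its call without β-catSD replicate 3 or WT replicate 2 (up to 0.072). Apc (-0.06), Axin1 (0.06), Gsk3b (-0.03), the β-catenin paralogue Jup (0.21), Tcf7l1 (0.05) and Tcf7l2 (-0.02) stayed within 0.21 of 0 and were not called.

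Of 14 genes of the medullary stroma 3 fell and 1 rose (28.6%, median -0.28). Alx1, Zeb2 and Lef1 fell, and the cyclin-dependent kinase inhibitor Cdkn1c rose. Cdkn1c measured 10.95, 10.86 and 10.92 log2 CPM in β-catSD, against 10.60, 10.50 and 10.41 in WT (log2 change 0.41 ± 0.08 SE, adjusted p = 0.00893), so it moved opposite to the other 3, without overlap of the groups. The opioid precursor gene Penk, also a medullary marker, differed by 0.84 and was not called. Of 23 cortical and progenitor genes 2 rose and 1 fell (13%, median 0.08). Tcf21 fell, while Slit3, a secreted repellent, measured 7.42, 7.61 and 8.07 log2 CPM in β-catSD, against 6.59, 7.01 and 7.07 in WT (log2 change 0.81 ± 0.17 SE, adjusted p = 0.0118). Pdgfrb, the PDGF receptor of stroma and pericytes, rose by 0.34 ± 0.09 SE (adjusted p = 0.0452). Whether the cortical and medullary lists differ was not tested.

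Most genes that define kidney stroma were not called. Of the 14 genes of the stroma identity list, Pdgfrb rose, and Tcf21 and the tetraspan membrane gene Lhfp fell (21.4%, median -0.01). Lhfp measured 5.87, 5.71 and 5.88 log2 CPM in β-catSD, against 6.77, 6.64 and 6.28 in WT (log2 change -0.74 ± 0.13 SE, adjusted p = 0.00192). Meis1 (-0.01), Vim (-0.06), Pdgfra (0.21) and Hoxd11 (-0.20) were among the 11 that were not called. Among 15 T-box, forkhead and teashirt factors of the renal and ureteral mesenchyme, Tshz2 and the forkhead gene Foxd2 rose and none fell (13.3%, median -0.19). Foxd2 measured 5.81, 5.98 and 6.16 log2 CPM in β-catSD, against 5.39, 5.22 and 5.14 in WT (log2 change 0.73 ± 0.14 SE, adjusted p = 0.0053). Slit3 lost its call without β-catSD replicate 3 or WT replicate 1 (adjusted p up to 0.107) and Pdgfrb without any library but β-catSD replicate 1 (up to 0.222).

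**Figure D4:**
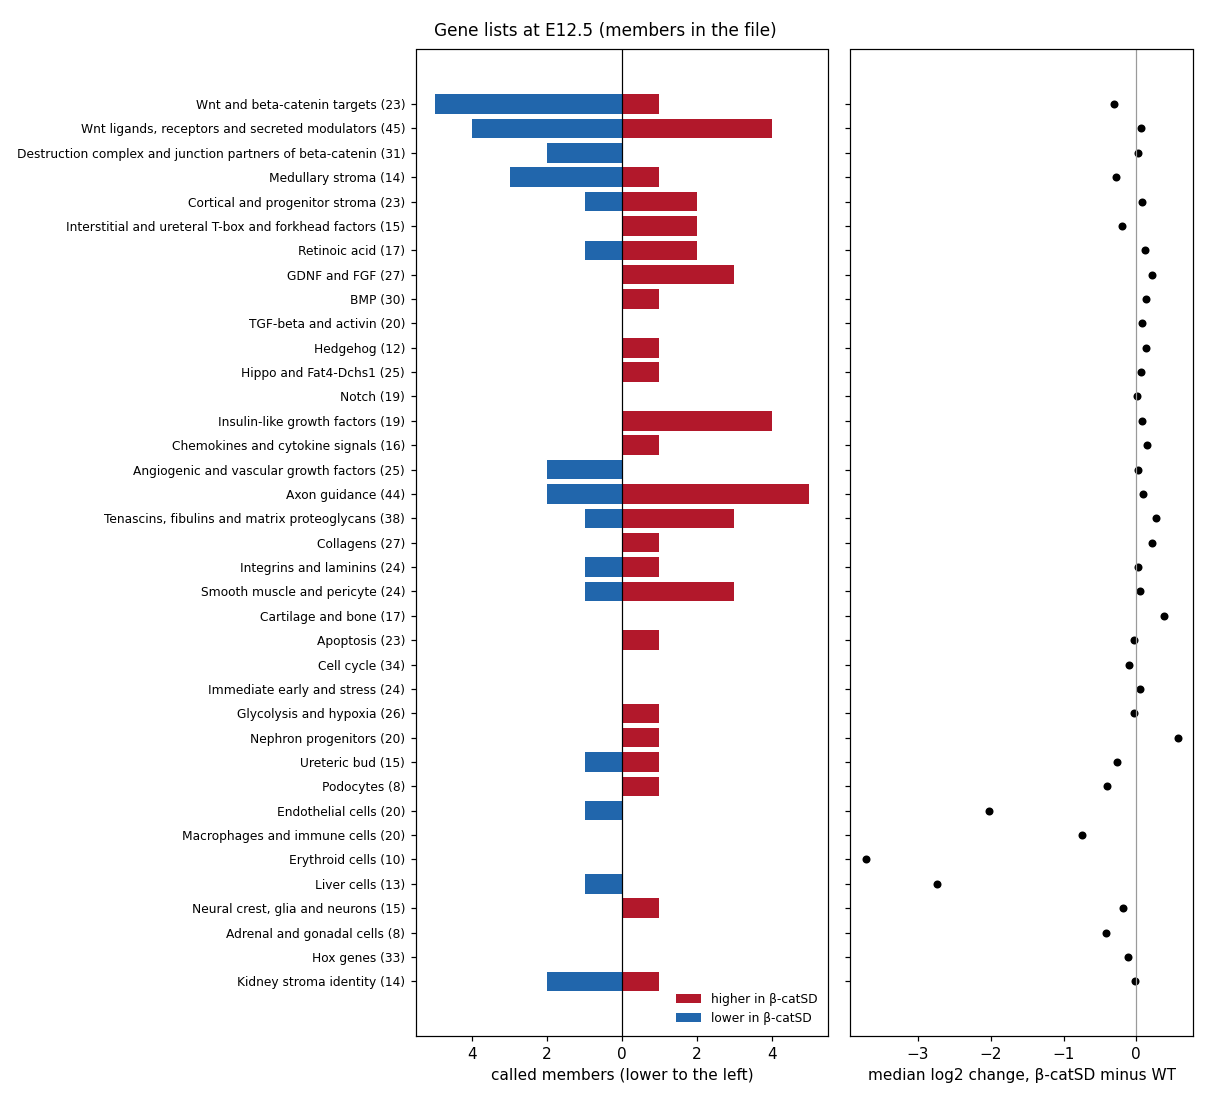
Called members of the gene lists in β-catSD against WT at E12.5, with the number of measured members in parentheses (left; red bars, higher; blue bars, lower) and the median log2 change of all measured members (right). The Wnt target list has 5 members lower and 1 higher, and the medians of the endothelial, erythroid and liver lists lie between -3.721 and -2.023 with at most 1 called member each.

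Signals that stroma sends to its neighbours changed in a few members of each pathway. In retinoic acid metabolism, 2 of 17 genes rose and 1 fell (17.6%, median 0.13). Cyp26b1, which degrades retinoic acid, measured 5.75, 5.54 and 6.05 log2 CPM in β-catSD, against 4.31, 4.54 and 4.79 in WT (log2 change 1.24 ± 0.26 SE, adjusted p = 0.014). Stra6, the receptor that takes up retinol, measured 5.77, 5.23 and 4.77 log2 CPM in β-catSD, against 6.28, 6.23 and 5.86 in WT (log2 change -0.87 ± 0.18 SE, adjusted p = 0.0118). Ecm1, a secreted matrix protein of stroma that lies downstream of retinoic acid in the kidney, rose by 0.63 ± 0.13 SE (adjusted p = 0.0126). The degrading enzyme and the uptake receptor thus moved in opposite directions, while the synthetic enzyme gene Aldh1a2 differed by 0.53 and was not called. All 3 called genes of this list lost their call without β-catSD replicate 3 or WT replicate 1 or 2, with adjusted p of up to 0.113.

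Of 27 genes of GDNF and FGF signalling 3 rose and none fell (11.1%, median 0.22). They were Etv4 and Etv5, ETS factors induced by FGF and RET, and Spry4, a feedback inhibitor of receptor tyrosine kinases. Etv4 measured 6.53, 6.72 and 6.49 log2 CPM in β-catSD, against 6.08, 5.63 and 5.61 in WT (log2 change 0.81 ± 0.19 SE, adjusted p = 0.0235). Etv5 measured 6.29, 6.70 and 6.43 log2 CPM in β-catSD, against 5.97 in all 3 WT libraries (log2 change 0.50 ± 0.12 SE, adjusted p = 0.0349). Spry4 rose by 0.57 ± 0.12 SE (adjusted p = 0.0135). Neither Gdnf (0.50) nor the FGF genes Fgf7 (0.02) and Fgf10 (0.23) were called. Spry4 lost its call without β-catSD replicate 2 or 3 or WT replicate 1 (adjusted p up to 0.0783), Etv4 without β-catSD replicate 2 or 3 or WT replicate 2 or 3 (up to 0.109), and Etv5 without any library but β-catSD replicate 1 (up to 0.159).

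Of the insulin-like growth factor genes, 4 of 19 rose and none fell (21.1%, median 0.08), and all 4 code for binding proteins. Igfbp3 measured 6.98, 7.83 and 8.02 log2 CPM in β-catSD, against 6.08, 6.26 and 6.63 in WT (log2 change 1.29 ± 0.20 SE, adjusted p = 0.000597). Igfbp5 measured 9.68, 10.67 and 11.16 log2 CPM in β-catSD, against 9.04, 9.20 and 9.57 in WT (log2 change 1.24 ± 0.24 SE, adjusted p = 0.00841). In both genes β-catSD replicate 1 lay nearest to WT and replicate 3 farthest. Igfbp7 rose by 1.47 ± 0.34 SE (adjusted p = 0.0256). Igfbp6 measured 2.12, 3.23 and 4.78 log2 CPM in β-catSD, against -2.76, -0.20 and 1.45 in WT, a wide spread in both groups (log2 change 3.88 ± 0.87 SE, adjusted p = 0.0205). The ligand genes Igf1 (1.05) and Igf2 (0.13) and the receptor gene Igf1r (0.08) were not called. Igfbp3 kept its call in all 6 fits, Igfbp5 lost it without β-catSD replicate 3 or WT replicate 1 (adjusted p up to 0.072), and Igfbp6 and Igfbp7 without β-catSD replicate 2 or 3 or WT replicate 1 or 2 (up to 0.147 and 0.2).

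Single members rose in 4 further pathways. Id1, a target of BMP signalling, was the only one called of 30 BMP genes (3.33%), at 6.42, 6.17 and 6.16 log2 CPM in β-catSD, against 5.60, 5.62 and 5.42 in WT (log2 change 0.70 ± 0.13 SE, adjusted p = 0.00508), and kept its call in all 6 fits. Fat3, an atypical cadherin, was the only one called of 25 Hippo and Fat genes (4%), at 4.77, 5.96 and 6.28 log2 CPM in β-catSD, against 3.96, 4.25 and 4.10 in WT (log2 change 1.57 ± 0.23 SE, adjusted p = 0.000549). Cdon, a hedgehog coreceptor, rose by 0.73 ± 0.19 SE (adjusted p = 0.0449) as 1 of 12 hedgehog genes (8.33%), with 1 β-catSD library inside the WT range, and lost its call without β-catSD replicate 2 or 3 or WT replicate 1 or 2 (up to 0.296). Ccl11 was the 1 called of 16 chemokine and cytokine genes (6.25%), and Cxcl12, another stromal chemokine, differed by 0.45 and was not called.

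Guidance genes were called in both directions, with 5 of 44 higher and 2 lower (15.9%, median 0.09). Nrp1, a receptor for class 3 semaphorins and VEGF, measured 8.45, 8.64 and 8.79 log2 CPM in β-catSD, against 7.88, 8.01 and 7.77 in WT (log2 change 0.74 ± 0.10 SE, adjusted p = 0.000145). The Eph receptor Epha4 measured 6.81, 6.88 and 6.79 log2 CPM in β-catSD, against 5.89, 5.98 and 6.16 in WT (log2 change 0.82 ± 0.15 SE, adjusted p = 0.0035). Robo1, a receptor for Slit ligands, measured 7.05, 7.07 and 6.64 log2 CPM in β-catSD, against 7.55, 7.71 and 7.51 in WT (log2 change -0.67 ± 0.12 SE, adjusted p = 0.0035). The Slit ligand gene Slit3 therefore rose while the receptor gene Robo1 fell. Ephb2 rose by 0.57 ± 0.11 SE (adjusted p = 0.00533) and the ligand Sema3f by 0.76 ± 0.16 SE (adjusted p = 0.0162). Sema3e, whose promoter is printed above, measured -0.57, -0.58 and -2.19 log2 CPM in β-catSD, against 1.53, 0.62 and 1.36 in WT (log2 change -2.29 ± 0.53 SE, adjusted p = 0.0244), so these 2 class 3 semaphorins were called in opposite directions, while Sema3a (-0.68), Sema3b (0.80), Sema3c (0.61), Sema3d (0.06) and Sema3g (-2.08) were not called. Nrp1, Epha4 and Robo1 kept their calls in all 6 fits. Ephb2 lost its call without β-catSD replicate 3 (adjusted p = 0.0547), Sema3f without β-catSD replicate 2 or 3 or WT replicate 1 (up to 0.0975), and Sema3e without β-catSD replicate 3 or WT replicate 1 or 3 (up to 0.182).

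The summed level of 38 tenascins, fibulins and matrix proteoglycans was 8890, 9620 and 12300 CPM in β-catSD, against 8710, 9570 and 9570 CPM in WT. Of these 38 genes 3 rose and 1 fell (10.5%, median 0.28). Tnc, a tenascin of growing mesenchyme, measured 7.04, 7.60 and 8.11 log2 CPM in β-catSD, against 6.18, 6.45 and 7.01 in WT (log2 change 1.03 ± 0.23 SE, adjusted p = 0.021). The tenascin Tnn rose by 3.58 ± 0.79 SE (adjusted p = 0.0175), the proteoglycan biglycan (Bgn) by 0.67 ± 0.16 SE (adjusted p = 0.0329), and the fibulin Fbln1 fell by 0.32 ± 0.08 SE (adjusted p = 0.0441). Of 27 collagens only Col8a2 was called (3.7%, median 0.22), with a rise of 0.80 ± 0.20 SE (adjusted p = 0.038). The summed level of the collagen list was 11100, 11100 and 17000 CPM in β-catSD, against 10700, 11800 and 12300 CPM in WT, so β-catSD replicate 3 stood above the other 5 libraries. Without this replicate Tnc, Tnn, Bgn, Fbln1 and Col8a2 all lost their calls, and each also lost it without 2 or 3 of the other libraries (adjusted p up to 0.168, 0.128, 0.237, 0.174 and 0.247). Among 24 integrins and laminins the integrin Itgav rose by 0.53 ± 0.11 SE (adjusted p = 0.014) and the laminin Lama1 fell by 0.92 ± 0.21 SE (adjusted p = 0.0258). Itgav lost its call without β-catSD replicate 2 or 3 or WT replicate 1 or 2 (up to 0.0913), and Lama1 without β-catSD replicate 1 or 3 or WT replicate 2 (up to 0.145).

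In the smooth muscle and pericyte list 3 of 24 genes rose and 1 fell (16.7%, median 0.05). Myocd, the coactivator that switches on smooth muscle genes, measured 0.08, 1.45 and 0.87 log2 CPM in β-catSD, against 2.85, 3.17 and 3.48 in WT, a 5.17-fold lower level with no overlap (log2 change -2.37 ± 0.36 SE, adjusted p = 0.000597). No contractile or actin-binding gene of the list was called. Acta2 (-0.51), Tagln (-0.61), Myh11 (-1.32), Cnn1 (-1.03), Actg2 (-1.43) and Synpo2 (-0.43) had negative log2 changes, and Lmod1 (0.72), Cnn2 (0.16), Mylk (0.13) and Des (0.07) positive ones. The genes that rose were Pdgfrb and the pair Kcnj8 and Abcc9, which code for the pore and the regulatory subunit of 1 potassium channel. Abcc9 measured 4.34, 5.55 and 5.65 log2 CPM in β-catSD, against 3.73, 3.95 and 4.19 in WT (log2 change 1.23 ± 0.24 SE, adjusted p = 0.0074), and Kcnj8 3.27, 4.36 and 4.94 log2 CPM in β-catSD, against 2.57, 2.65 and 3.10 in WT (log2 change 1.42 ± 0.31 SE, adjusted p = 0.015). β-catSD replicate 1 lay nearest to WT in both genes. The other pericyte and vascular tone genes of the list were not called, namely Cspg4 (0.55), Mcam (0.18), Rgs5 (0.03), Notch3 (0.0049), Anpep (0.38), Ednra (0.45), Agtr1a (0.68), Ednrb (-1.41), Gucy1a1 (-0.73) and Gucy1b1 (-0.21). Abcc9 lost its call without β-catSD replicate 2 or 3 (up to 0.0709) and Kcnj8 without either of these or WT replicate 1 or 2 (up to 0.133). Of 25 angiogenic factors Angpt1, a ligand of the endothelial receptor Tek, and Sema3e fell and none rose (8%, median 0.02). Angpt1 measured 5.05, 4.70 and 4.66 log2 CPM in β-catSD, against 5.64, 5.61 and 5.30 in WT (log2 change -0.71 ± 0.17 SE, adjusted p = 0.0254), and lost its call without β-catSD replicate 2 or 3 or WT replicate 1 or 2 (up to 0.136). Vegfa differed by 0.11 and was not called. Summed endothelial RNA, given above, was also lower in β-catSD than in WT replicates 2 and 3, and its part in the change of Angpt1 and Sema3e was not tested.

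Several lists had no called member. As 1.72% of all genes were called, lists this short may hold none at that share, and nothing is drawn from it. Among 34 cell cycle genes none was called, 26 had a negative and 8 a positive log2 change, and the median was -0.10. The smallest p belonged to Bub1 and Top2a, both with a log2 change of -0.27 ± 0.09 SE (adjusted p = 0.123 and 0.137). The 33 Hox genes, the 20 TGF-β and activin genes, the 19 Notch genes, the 24 immediate early and stress genes and the 17 cartilage and bone genes likewise held none. In the last of these lists the tendon factor Scx came nearest (log2 change 0.91 ± 0.24 SE, adjusted p = 0.0517), with Runx2, a factor of bone, next (1.14 ± 0.32 SE, adjusted p = 0.074). Of 23 apoptosis genes the p53 target Phlda3 alone was called (4.35%), with a rise of 0.48 ± 0.12 SE (adjusted p = 0.0329). Of 26 glycolysis and hypoxia genes the hydroxylase Egln3 alone was called (3.85%), with a rise of 1.12 ± 0.25 SE (adjusted p = 0.0223). Phlda3 lost its call without any library but β-catSD replicate 1 (up to 0.247) and Egln3 without β-catSD replicate 2 or 3 or WT replicate 1 (up to 0.125).

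Lists of other cell types held few called genes, though the lists are short. The share called was 5% for nephron progenitors, 13.3% for the ureteric bud and 6.67% for neural genes. It was 5% for endothelial, 7.69% for liver and 0% for macrophage and erythroid genes, against 1.72% of all genes. Of 20 nephron progenitor genes Meox1 alone was called, and the median log2 change was 0.57. The defining progenitor genes Six2 (0.72), Cited1 (0.77), Eya1 (0.72) and Pax2 (0.94) were not called, and Six2 measured 3.02, 4.67 and 2.41 log2 CPM in β-catSD, against 2.47, 2.88 and 2.60 in WT, which overlap. Of 15 ureteric bud genes Etv4 rose and the keratin Krt8 fell. Krt8 had 0, 1 and 0 reads in β-catSD, against 14, 62 and 197 reads in WT, a WT to β-catSD ratio of 243 scaled for depth (95% counting interval 43.2 to 9610). Without WT replicate 3 the ratio was 105 (18.3 to 4200), and in both cases it rested on 1 read in β-catSD. The bud genes Gata3 (0.07), Ret (-0.27), Wnt11 (0.39) and Cdh1 (-3.11) were not called. Over the bud list, 6 genes had a positive and 9 a negative log2 change, with a median of -0.27. Krt8 lost its call without β-catSD replicate 3 or WT replicate 2 or 3 (adjusted p up to 0.0615). The neurotrophin receptor Ngfr, the 1 called of 15 neural genes, measured 5.54, 6.12 and 6.50 log2 CPM in β-catSD, against 4.86, 4.85 and 4.81 in WT (log2 change 1.21 ± 0.20 SE, adjusted p = 0.0012) and kept its call.

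Of 20 endothelial genes 18 had a negative log2 change and the median was -2.02, but only Vwf, the von Willebrand factor, was called. It measured -0.10, -0.14 and 0.47 log2 CPM in β-catSD, against 2.34, 3.83 and 3.84 in WT (log2 change -3.26 ± 0.71 SE, adjusted p = 0.0166), and lost the call without β-catSD replicate 2 or WT replicate 2 or 3 (up to 0.0838). All 20 macrophage genes had a negative log2 change (median -0.74) and none was called. Of 10 erythroid genes 9 had a negative log2 change and none was called. The embryonic globin Hbb-y measured 5.03, 2.33 and 5.67 log2 CPM in β-catSD, against 9.05, 9.29 and 8.92 in WT, without overlap (log2 change -4.74 ± 1.35 SE, adjusted p = 0.0739). Of 13 liver genes only Apoc1 was called, with a fall of 3.88 ± 0.93 SE (adjusted p = 0.0306) that was lost without β-catSD replicate 1 or WT replicate 1 or 3 (up to 0.122). The parts of these cells in the changes of other genes were not tested. The fit with covariates cannot decide them, because the summed erythroid level, for 1, did not overlap between the groups. Adjusting for such a list also removes part of the difference between β-catSD and WT.

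The same contrast at E13.5 drew on 6 other libraries, 3 β-catSD and 3 WT of C57BL/6, and called 469 genes (3.4%), with 1.33% of genes higher and 2.07% lower. Of the 237 genes called at E12.5, 123 were called at E13.5 too, all in the same direction, which is 51.9% of the E12.5 calls and 26.2% of the E13.5 calls. The sign was shared by 234 of the 237 genes (98.7%), against 61.9% of all genes. At E13.5 the median log2 change was 0.60 among the genes that rose at E12.5 and -0.74 among those that fell. The log2 change of Thy1 was -2.94 at E12.5, beside -3.79 at E13.5. That of Alx1 was -4.20 and -5.06, that of Lef1 -2.42 and -3.79, that of Pdlim5 1.15 and 1.29, that of Meox1 1.59 and 1.88, and that of Axin2 -1.03 and -1.01, in the same order. All of these were called at both stages.

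The difference between the 2 stages' effects was tested directly and gave 0 called genes by limma (753 at an unadjusted p under 0.05, and 647 with 0 called under voom weights, smallest adjusted p = 0.292 in the first). Among genes called at E12.5, 3 had the opposite sign at E13.5, namely Zeb2, Igsf8 and Ncaph. Zeb2, lower at E12.5, had 7.39 ± 0.15 log2 CPM in β-catSD and 7.38 ± 0.12 in WT at E13.5 (SD, n = 3 each), a log2 change of 0.01, and the difference of effects was -0.72 ± 0.15 SE (adjusted p = 0.292). The log2 change of Igfbp6 was 3.88 at E12.5 beside 0.19 at E13.5, and that of Angpt1 -0.71 beside -0.20, with adjusted p of 0.89 for both differences. A p that misses the threshold does not show that the 2 stages respond alike. The count of stage differences depended on single libraries at E12.5. Without WT replicate 3, 23 genes were called, Zeb2 among them (-0.81 ± 0.15 SE, adjusted p = 0.0311). Without β-catSD replicate 3, where Lef1 is lowest, 1 gene was called, Lef1, whose E12.5 minus E13.5 difference was then 2.22 ± 0.34 SE (adjusted p = 0.0234). Without β-catSD replicate 2 it was 1 as well, the ribosomal protein gene Rpl35, named after its value was seen.

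Stroma with stabilised β-catenin at E12.5 allowed the deficient cells to be set beside cells with the opposite change. It differs in strain (CD1) and has WT libraries of its own, so no library is shared, and strain cannot be told apart from the direction of the β-catenin change. β-catSO against its WT called 1127 genes (8.16%), with 5.17% of genes higher and 3% lower. Of the 237 genes called in β-catSD, 100 were also called in β-catSO (42.2% of the β-catSD calls and 8.87% of the β-catSO calls): 79 in the opposite direction and 21 in the same one. Of the genes that rose in β-catSD, 40 fell and 14 rose in β-catSO, and of those that fell in β-catSD, 39 rose and 7 fell. Over all 13803 genes 46.1% had the same sign in both. The median change in β-catSO was -0.21 for genes that rose in β-catSD and 0.24 for genes that fell.

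The difference of the 2 effects was called in 1020 genes (7.39%), with a positive difference in 3.4% of genes and a negative one in 3.99%. Of these 1020 genes, 155 were among the 237. The difference contains the β-catSD effect by which the 237 were chosen, so a raised share among them was built in. The smallest adjusted p, 3.4e-12, was shared by Axin2 and Apcdd1. Axin2 changed by -1.03 in β-catSD and by 3.47 in β-catSO, and Apcdd1 by -0.90 and 4.26, so the change in β-catSO was the larger in log2 units, which was not tested as such. Tcf7 changed by -1.16 in β-catSD and by 4.04 in β-catSO, and Nkd1 by -0.26 and 2.54. Both differences were called (adjusted p = 3.93e-08 and 5.85e-10) although neither gene was called in β-catSD. For Thy1 the change in β-catSD was the larger in log2 units, -2.94 in β-catSD and 1.23 in β-catSO, and likewise for Alx1, -4.20 and 2.39. Their signed differences were called (adjusted p = 2.1e-09 and 9.38e-06), while which change is larger in size was not tested. Lgr4, Tcf12, a helix-loop-helix factor, and Nectin1, a cell adhesion gene, also fell in β-catSD (-0.67, -0.45 and -0.43) and rose in β-catSO (1.09, 1.10 and 1.65). Of the 39 genes that fell in β-catSD and rose in β-catSO, 30 have promoters in the RefSeq table, and 6 of these 49 promoters hold CTTTGA (12.2%).

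Genes with the reverse pattern rose in β-catSD and fell in β-catSO. They included Meox1 (1.59 in β-catSD and -0.99 in β-catSO), Tmem132e (1.50 and -1.18), Tshz2 (0.56 and -0.41), Kcns3 (1.17 and -0.78) and the junction adhesion gene F11r (0.87 and -0.77), each with an adjusted p of the difference between 7.97e-07 and 7.81e-06. Sall1 and Cadm1, a factor of kidney progenitors and an adhesion gene, fell in β-catSO (-1.60 and -1.57) but were not called in β-catSD (0.24 and 0.03), and their difference was called (2.1e-09 and 4.69e-06). A minority moved together in both. Pcdh9 rose by 1.64 in β-catSD and 1.26 in β-catSO, Fat3 by 1.57 and 1.17, and Epha4 by 0.82 and 0.66, while Wdfy1 fell by 1.27 and by 0.84. For these 4 genes the difference of effects was 0.38 ± 0.29 SE, 0.40 ± 0.33 SE, 0.15 ± 0.21 SE and -0.44 ± 0.21 SE, and none was called (adjusted p from 0.245 to 0.749).

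**Figure D5:**
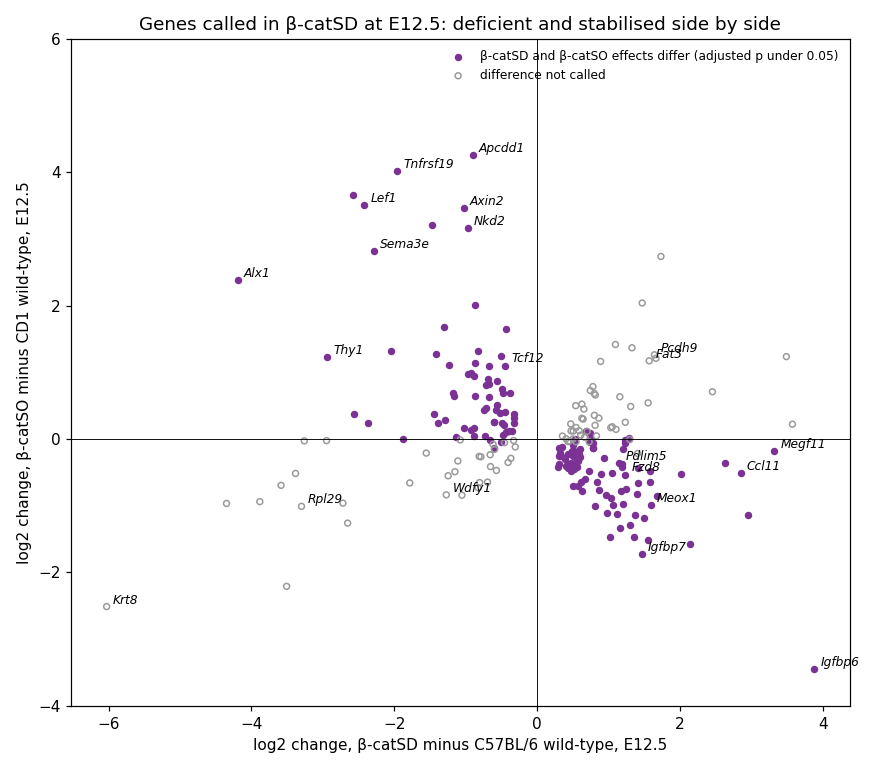
The 237 genes called in β-catSD at E12.5, by their log2 change in β-catSD minus C57BL/6 WT (x axis) and in β-catSO minus CD1 WT (y axis); filled purple points are the 155 genes whose 2 effects differ at an adjusted p under 0.05. Wnt targets such as Axin2, Apcdd1 and Tnfrsf19 lie at upper left, lower in β-catSD and higher in β-catSO, and Meox1 and Igfbp7 at lower right. The difference contains the β-catSD effect by which the 237 were chosen, so a raised share of filled points was built in.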

How the data were processed

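RNA from sorted embryonic kidney stroma was sequenced on an Illumina HiSeq, per the labels' protocols. Alignment with HISAT2 to mm10, counting with HTSeq and use of limma are listed, unversioned, in the submitters' processing notes. The authors deposited log2 CPM values on the voom scale: library sizes scaled by TMM, with 0.5 added to each count. Neither the strand setting nor a filter on low genes is given in the sources used here. Reads were recovered as whole numbers from the deposited values (100% within 0.1 of a whole number) and used for depth, read ratios and 3 alternatives. The interval printed covers only counting error, because PCR copies were not separated by molecular identifiers.

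The deposited values of all 24 libraries were fitted with limma 3.58.1 in R 4.3.3, as 8 group means with empirical Bayes moderation and a mean-variance trend (degrees of freedom: 16 residual, 6.43 prior). Tested genes had at least 3 libraries above log2 CPM 0, which removed none of 13803. A call means a 2-sided p under 0.05 after Benjamini-Hochberg adjustment across all of them. Fitted contrasts were β-catSD against WT at each stage, β-catSO against WT at E12.5, and the 2 differences of effects. The pipeline was tested on simulated data.

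Named genes were, among called genes with a given name, mean log2 CPM above 0 and groups that do not overlap, the 12 smallest p and 6 largest changes each way; every called member of a gene list, or at most 2 of smallest p where none was called; 7 fixed genes; and the 6 smallest p each way of each difference of effects. Other values of list members are given without selection by a test, and a few genes are not reported here. Members and lists were chosen with earlier results of these data known. Positions come from GENCODE M21 (GRCm38, the mm10 build), where 98.9% of symbols were found, and near-identical loci from BLAST 2.17.0 (95% identity over 200 nucleotides). Of the named genes, 44 overlap an annotated gene on the other strand, so reads of the 2 genes cannot be told apart. Alternatives changed the libraries fitted, offset, filter, weights, scaling, covariates, replicate block or a library left out. Python 3.11.15 with matplotlib 3.10.9 drew the plots.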

Additional observations from a re-analysis of the deposited data

How the results depend on the processing

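The count of 237 calls (136 higher, 101 lower) became 241 with log2(CPM + 1), 234 with a mean log2 CPM above 1, 209 with voom weights and 232 with median-of-ratios scaling, and 228, 224, 175 and 230 of these were among the 237. The last was chosen after seeing the data, and it shifts library scales by between -0.0156 and 0.0112 (log2). Fitting the 6 compared libraries alone gave 92 calls (51 higher, 41 lower), of which 73 were among the 237, and the 4 cell type covariates gave 85 (50 higher, 35 lower). Leaving out 1 library gave 92 to 395 calls, 36 to 258 higher and 48 to 137 lower. The 0 called stage differences became 1 (Asb4) with the replicate block and 0 to 23 with a library left out. The 1020 differences between β-catSD and β-catSO stayed within 1.5 times of that count in all settings run. The cause of these shifts was not tested.

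Libraries with the same replicate number had correlated deviations of r = 0.198, 0.072 and 0.276, and each correlated best with its own number. As 1 of these is under 0.1, the numbers were not taken to pair the libraries. The replicate block gave 304 calls (182 higher, 122 lower), 203 of them among the 237.

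Among named genes, 1181 values kept direction and side of the threshold, 278 lost a call, 23 gained one and 8 changed sign. The log2 change of Cadm1 went to -0.005 with covariates and lay between -0.029 and 0.116 with a library left out. The log2 change of Foxd1 went to 0.007 with voom weights and lay between -0.121 and 0.069 with a library left out. The log2 change of Hbb-y went to 0.054 with covariates. The mean of the erythroid list, which contains Hbb-y itself, is among these covariates. A shrinkage of its change was therefore built in, and nothing is drawn from it. Count-model tests (a quasi-likelihood test under each of 2 scalings, and a Wald test) were planned and not run. The deposited unit is log2 CPM, though reads recovered from it were used for other alternatives. Depth limits genes with few reads in β-catSD, such as Krt8, Fzd6 and Alx1, whose fitted changes depend on the 0.5 added to each count.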

Other observations

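The following values were singled out after they were seen. Chromosome 9, which carries Ctnnb1, held 26 called genes of 756 tested (3.44%, against 1.72% of all genes), 8 higher and 18 lower in β-catSD. Within 20 Mb of Ctnnb1, 2 genes rose and 8 fell of 216 (4.63%), and within 10 Mb none rose and 3 fell of 82 (3.66%), counted without Ctnnb1. Among these the oligosaccharyltransferase subunit gene Stt3b fell by 0.39 and the phosphatase gene Sacm1l by 0.50. Stt3b measured 7.71, 7.69 and 7.66 log2 CPM in β-catSD, against 8.09, 8.05 and 8.09 in WT. Within 20 Mb of Foxd1, on another chromosome, 0 of 132 genes were called. The chromosome 9 share was not compared with other chromosomes by a test, and its cause was not tested.

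Thy1 has a called neighbour. Usp2, a deubiquitinase gene that starts next to Thy1 (chr9:44067021-44095627, + strand), measured 1.93, 2.02 and 2.25 log2 CPM in β-catSD, against 3.17, 3.60 and 3.13 in WT (log2 change -1.23, adjusted p = 0.0106). Nectin1, which fell by 0.43, lies on the other side (chr9:43743984-43807461, + strand).

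Without WT replicate 3, the 23 genes whose β-catSD effect differed between E12.5 and E13.5 included the macrophage genes Csf1r (difference 3.04 ± 0.51 SE, adjusted p = 0.0142), C1qa (3.18 ± 0.62 SE, 0.0358), Cx3cr1 (3.11 ± 0.51 SE, 0.0142), Ptprc (3.63 ± 0.61 SE, 0.0142) and Mrc1 (2.74 ± 0.54 SE, 0.0358). At E13.5, 16 of the 20 macrophage genes fell in β-catSD and the median log2 change was -2.58, against 0 called and a median of -0.74 at E12.5 with all libraries. Csf1r measured 4.57, 4.23 and 5.50 log2 CPM in β-catSD at E12.5, against 4.40, 4.79 and 7.21 in WT, where WT replicate 3 is the highest.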
